A study of Rattus norvegicus with 16 samples.

Results

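Target genes of the hypoxia-inducible factors (HIFs) other than glycolytic enzymes were examined in rat hepatoma H35 cells whose *Pdrg1* expression had been silenced. There are 10 of them, *Adm*, *Vegfa*, *Angptl4*, *Egln1*, *Egln3*, *Bnip3*, *Bnip3l*, *Pdk1*, *Ndrg1* and *Ankrd37*, out of 26269 gene names on the array, and they are read by 13 of its 30367 probes. They were selected on their measured difference from the control clone in these same arrays, so that their values against the control are given as a description and carry no test. H35 is an established line of rat liver tumor cells. All cells had been transfected with a SureSilencing plasmid that carries an shRNA, and there were 4 groups of 4 arrays. CN-10 is a stable clone that carries the negative control shRNA, 4-18 is a stable clone with shRNA4 against *Pdrg1*, and 3-44 is a stable clone with shRNA3 against *Pdrg1*. The group shRNA3T is a pool of cells that received the shRNA3 plasmid in a transient transfection and were then enriched by G418, the antibiotic to which the plasmid gives resistance. Selection began 48 h after transfection at 1.8 mg/ml G418, and the pool consists of the cells left after this step, whereas the stable clones went through a further round at 4 mg/ml. Each stable group is a single clone, so a property of the clone and an effect of its shRNA cannot be told apart. The labels name no hypoxic treatment of any group.

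HIFs are transcription factors made of an oxygen-regulated alpha subunit (*Hif1a* or *Epas1*) and a constitutive beta subunit (*Arnt*). When oxygen is available, prolyl hydroxylases encoded by *Egln1*, *Egln2* and *Egln3* modify the alpha subunit, and the von Hippel-Lindau protein (*Vhl*) then brings it to a ubiquitin ligase for degradation. When hydroxylation stops, the alpha subunit accumulates and the dimer binds hypoxia response elements, whose core is ACGTG or GCGTG. Its targets include secreted factors such as adrenomedullin and VEGF, the prolyl hydroxylases themselves in a negative feedback, and mitochondrial proteins that lower oxygen use. Several of these genes also answer to other regulators in liver cells, such as PPAR alpha in the case of *Angptl4*.

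The stretch before the transcription start is shown for the 5 members in which these core letters were found, since it is the part of each gene where a shared element would be looked for. RefSeq gave a promoter window on GRCr8 for 8 of the 10 members, and *Bnip3l* and *Ndrg1* had no entry. ACGTG and GCGTG were searched on both strands in the 250 bases before each start. Every match is in capitals, read 5′ to 3′ on the strand of the gene, and a match on the opposite strand appears as CACGT or CACGC.
Bnip3, chr1:203154963-203155212, minus strand: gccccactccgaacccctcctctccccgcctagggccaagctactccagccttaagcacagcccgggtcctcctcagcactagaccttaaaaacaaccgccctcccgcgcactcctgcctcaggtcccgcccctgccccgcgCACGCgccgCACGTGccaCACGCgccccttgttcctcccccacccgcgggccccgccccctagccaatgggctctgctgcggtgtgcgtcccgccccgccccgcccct
Ankrd37, chr16:53001257-53001506, plus strand: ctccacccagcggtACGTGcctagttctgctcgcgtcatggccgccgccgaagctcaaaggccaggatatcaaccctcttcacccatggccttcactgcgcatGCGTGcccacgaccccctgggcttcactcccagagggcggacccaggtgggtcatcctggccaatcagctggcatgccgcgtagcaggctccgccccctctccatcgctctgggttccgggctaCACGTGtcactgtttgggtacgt
Pdk1, chr3:77113264-77113513, plus strand: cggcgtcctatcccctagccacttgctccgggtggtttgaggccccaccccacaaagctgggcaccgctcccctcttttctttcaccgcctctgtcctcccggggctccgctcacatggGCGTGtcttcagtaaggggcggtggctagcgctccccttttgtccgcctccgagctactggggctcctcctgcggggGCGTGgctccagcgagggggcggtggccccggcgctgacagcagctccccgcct
Egln1, chr19:69804682-69804931, minus strand: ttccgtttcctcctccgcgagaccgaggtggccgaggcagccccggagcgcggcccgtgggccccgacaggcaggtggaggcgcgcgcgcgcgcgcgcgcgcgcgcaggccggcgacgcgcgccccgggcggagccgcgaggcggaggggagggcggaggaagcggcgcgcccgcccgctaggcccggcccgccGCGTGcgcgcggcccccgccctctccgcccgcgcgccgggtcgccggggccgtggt
Angptl4, chr7:15258682-15258931, minus strand: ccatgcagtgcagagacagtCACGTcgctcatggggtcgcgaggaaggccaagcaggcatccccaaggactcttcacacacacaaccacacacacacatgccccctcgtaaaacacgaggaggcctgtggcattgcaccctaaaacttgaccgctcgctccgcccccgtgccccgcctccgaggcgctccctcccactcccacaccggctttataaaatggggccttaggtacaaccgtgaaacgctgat
ACGTG was found in 3 of the 8 genes (*Bnip3*, *Ankrd37* and *Angptl4*) and in 16.6% of all 33469 windows of the same length. GCGTG was found in 4 of the 8 genes and in 25.9% of all windows, and 1 or both cores in 5 of the 8 genes and in 36.7% of all windows. *Bnip3* and *Ankrd37* held both cores, and in each of them 1 match is the palindrome CACGTG, which is at the same time the E-box of other transcription factors and which 5.59% of all windows contain. In *Bnip3* all matches lay between 108 and 90 bases before the start. The windows of *Adm*, *Egln3* and both starts listed for *Vegfa* held neither core, which says only that these letters are absent from this stretch.

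All 13 probes were well above background on all 16 arrays, so each member value below is a measured level. Between 53.1% and 74.3% of the spots of an array were well above background, and the 75th percentile of the processed signal was between 1613 and 1878 on the arrays of 4-18 and between 2290 and 3647 on the others. Since the 4 arrays of a group shared 1 slide, effects of slide and of group cannot be told apart. *Pdrg1* itself was lower on all 12 silenced arrays than on any array of CN-10, with log2 differences of -0.77 in 4-18, -0.99 in 3-44 and -0.85 in shRNA3T whose limma adjusted p lay between 0.105 and 0.143. The 8 hepatocyte markers examined were well above background on all arrays, except *Apoa1* and *Hnf4a* on 1 array of 4-18 each. Of 8 markers of other liver cells, *Ptprc* (leukocytes), *Pecam1* (endothelium) and *Epcam* (biliary epithelium) were so on none of the 16 arrays, while *Col1a1* (fibroblasts) was so on all 16, *Cd68* (macrophages) and *Acta2* (stellate cells) on all but 1 array of 4-18, *Kdr* (endothelium) on 3 arrays each of CN-10 and shRNA3T, and *Krt19* (biliary epithelium) on the 4 arrays of CN-10 only. The part of these markers in the member values was not tested. In RNA from whole cultures, fewer expressing cells and less RNA per cell cannot be told apart.

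**Figure D1:**
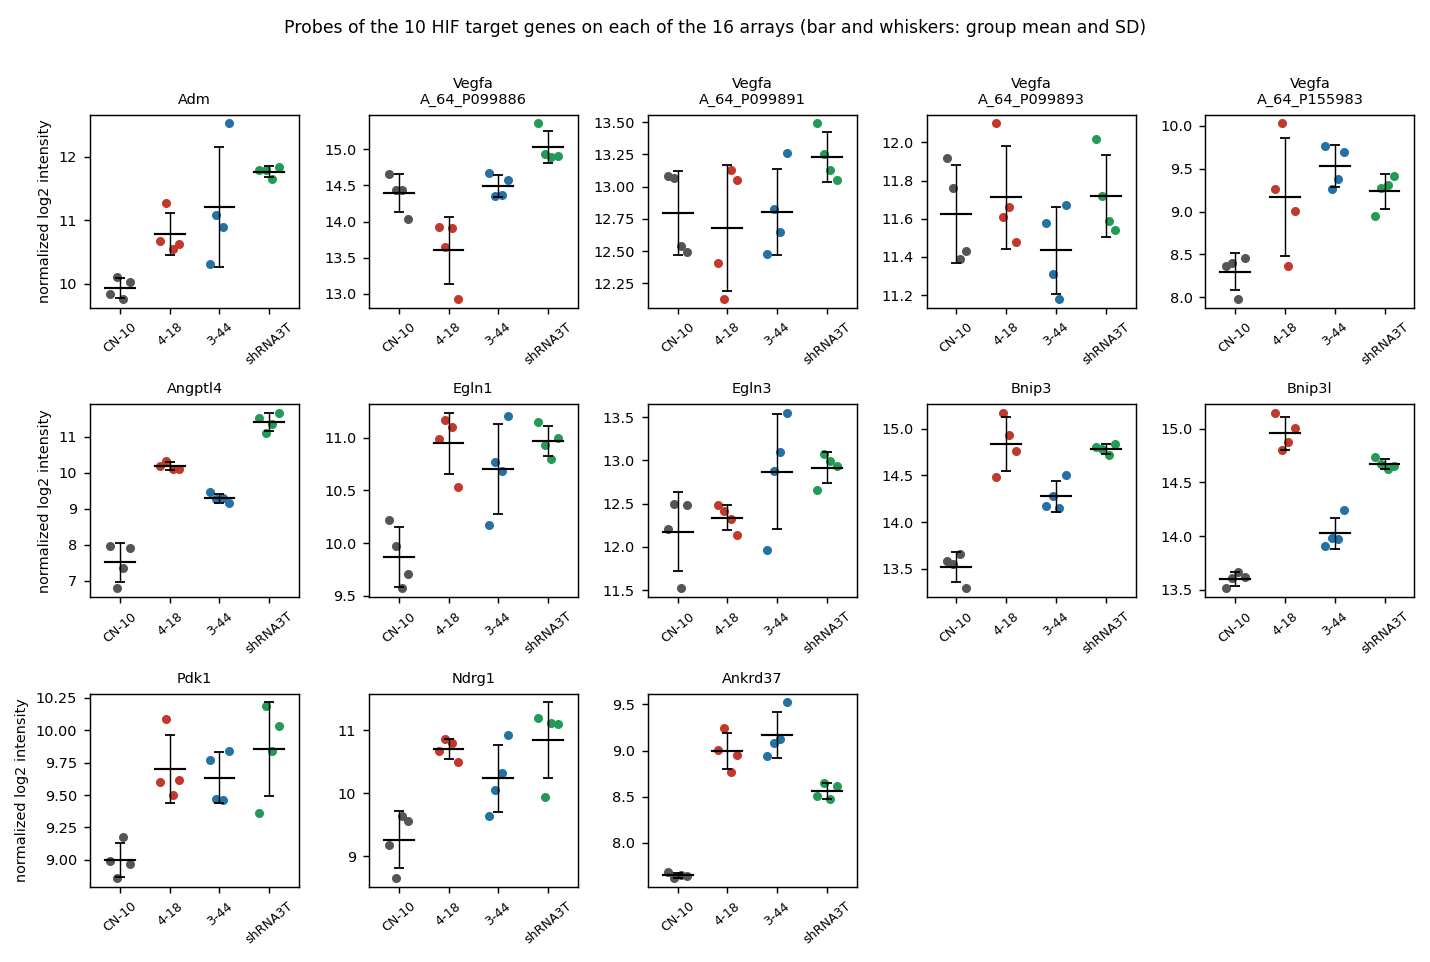
Normalized log2 intensity (vertical axis) of each of the 13 member probes on the 16 arrays, by group (horizontal axis). Points are arrays, horizontal bars are group means and whiskers are SDs of 4 arrays. *Angptl4* separates the 4 groups without overlap, whereas *Egln3* of 4-18 lies within the range of CN-10 and the Vegfa probes differ from each other.

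The secreted factors came first. *Angptl4*, a secreted inhibitor of lipoprotein lipase, is read by A_64_P088382 on the minus strand of rn4 at chr7:16261624-16261683. On the normalized log2 scale its arrays, in order of replicate number, were at 7.96, 6.78, 7.36 and 7.92 in CN-10, at 10.18, 10.34, 10.11 and 10.11 in 4-18, at 9.46, 9.27, 9.31 and 9.15 in 3-44, and at 11.53, 11.11, 11.35 and 11.67 in shRNA3T. The 4 groups were therefore stacked without overlap, in the order CN-10, 3-44, 4-18 and shRNA3T. Group levels were 7.51 ± 0.56 in CN-10, 9.29 ± 0.13 in 3-44, 10.18 ± 0.11 in 4-18 and 11.41 ± 0.24 in the pool (SD, n = 4). *Angptl4* had the widest difference from CN-10 among the members in all 3 silenced groups, 3.45-fold in 3-44, 6.39-fold in 4-18 and 15-fold in shRNA3T. The log2 differences were 1.79, 2.68 and 3.91 with a standard error of 0.21.

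*Adm* encodes adrenomedullin, a vasodilator peptide, and its probe A_43_P11527 (plus strand, rn4 chr1:168382310-168382369) is spotted 10 times on each array. The arrays were at 9.84, 10.11, 9.76 and 10.03 in CN-10, at 10.68, 11.28, 10.55 and 10.62 in 4-18, at 10.31, 11.09, 10.90 and 12.53 in 3-44, and at 11.79, 11.80, 11.65 and 11.84 in shRNA3T. Every silenced array lay above every array of CN-10, and the pool was the most uniform silenced group (SD 0.08) while 3-44 was the most scattered (SD 0.94). The log2 difference from CN-10 was 0.85 in 4-18, 1.27 in 3-44 and 1.84 in the pool (standard error 0.33). Replicate 4 of 3-44 carried much of the second value, which was 0.83 without that array. The 10 spots within an array of 3-44 had a mean SD of 0.22, beside the SD of 0.94 between the arrays.

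*Vegfa*, the vascular endothelial growth factor A gene, is read by 4 probes that lie in order along the plus strand of chromosome 9, and they did not give the same picture. A_64_P099893 (chr9:10527602-10527661 of rn4) lies furthest upstream and A_64_P099886 (chr9:10535933-10535992) furthest downstream. The probes between them read coding bases and are shown here with their rn4 positions, because the stretch each one reads is where they differ.
A_64_P099891, chr9:10528551-10528610: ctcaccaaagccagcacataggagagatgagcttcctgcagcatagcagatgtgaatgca
A_64_P155983, chr9:10531972-10532031: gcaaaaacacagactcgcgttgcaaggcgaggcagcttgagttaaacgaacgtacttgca
Read as codons, the bases of A_64_P155983 encode a part of the heparin-binding region, which alternative splicing leaves out of the shortest secreted form of VEGF. A_64_P099893 and A_64_P099891 lie upstream of it in the coding sequence.

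On A_64_P155983 the arrays were at 8.36, 8.40, 7.98 and 8.46 in CN-10, at 9.26, 10.03, 8.37 and 9.01 in 4-18, at 9.77, 9.26, 9.38 and 9.70 in 3-44, and at 8.95, 9.27, 9.31 and 9.42 in shRNA3T. All arrays of 3-44 and shRNA3T lay above CN-10, and 1 array of 4-18 fell within its range. On A_64_P099886 they were at 14.66, 14.44, 14.44 and 14.04 in CN-10, at 13.92, 13.65, 13.91 and 12.93 in 4-18, at 14.67, 14.36, 14.37 and 14.58 in 3-44, and at 15.36, 14.94, 14.90 and 14.91 in shRNA3T. There 4-18 lay wholly below CN-10 and shRNA3T wholly above it. The log2 differences from CN-10 on A_64_P155983 were 0.87 in 4-18, 1.23 in 3-44 and 0.94 in the pool (standard error 0.26), and on A_64_P099886 they were -0.79, 0.10 and 0.63 (standard error 0.20). On A_64_P099891 the differences ran from -0.12 to 0.43 and on A_64_P099893 from -0.19 to 0.09, with arrays of all silenced groups overlapping those of CN-10 on both. The direction of these differences changed under some of the alternatives tried, except that A_64_P099891 in shRNA3T stayed between 0.27 and 0.53. On A_64_P099886 the difference of 4-18 from CN-10 kept its direction but ran from -1.52 to -0.26.

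Since the control contrast had chosen the gene, the probes of *Vegfa* were set against each other between the silenced groups, which tests whether they changed unequally and was decided on after the values had been seen. Within each array the value of A_64_P099893 minus that of A_64_P099886 was -1.89 ± 0.35 in 4-18, -3.06 ± 0.11 in 3-44 and -3.31 ± 0.06 in shRNA3T (SD, n = 4), and -2.77 ± 0.19 in CN-10. The 3 silenced groups did not overlap in this difference (exact permutation of arrays, two-sided, p = 0.0286 in every pair, the smallest that 4 arrays against 4 allow), and the p adjusted over the 18 pairs of probes and groups compared was 0.0735. For A_64_P155983 minus A_64_P099886 the difference was -4.44 ± 0.86 in 4-18, -4.97 ± 0.10 in 3-44 and -5.79 ± 0.42 in shRNA3T, and 3-44 lay above shRNA3T without overlap (exact p = 0.0286, adjusted p = 0.0735). None of the 18 comparisons passed an adjusted p of 0.05, which this number of arrays could not reach unless more of them had separated completely. All 18 were made with the reported normalization only.

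The oxygen sensors were next. *Egln1* encodes PHD2, the main prolyl hydroxylase that marks HIF alpha subunits for degradation, and is read by A_64_P084234 (minus strand, rn4 chr19:55117747-55117806). Its arrays were at 10.22, 9.97, 9.57 and 9.71 in CN-10, at 10.99, 11.17, 11.10 and 10.53 in 4-18, at 10.17, 10.77, 10.68 and 11.21 in 3-44, and at 11.15, 10.93, 10.80 and 11 in shRNA3T. All arrays of 4-18 and shRNA3T lay above CN-10, and replicate 1 of 3-44 lay within its range. The log2 differences were 1.08 in 4-18, 0.84 in 3-44 and 1.10 in the pool (standard error 0.20), close to the limit of 2-fold in each case.

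*Egln3* encodes PHD3, a prolyl hydroxylase whose own expression is a classical hypoxia response, and is read by A_44_P203549 (minus strand, rn4 chr6:74451958-74452017). The arrays were at 12.21, 12.50, 11.52 and 12.48 in CN-10, at 12.48, 12.42, 12.32 and 12.14 in 4-18, at 11.96, 12.88, 13.10 and 13.55 in 3-44, and at 12.66, 13.08, 12.99 and 12.94 in shRNA3T. Clone 4-18 fell inside the range of CN-10, clone 3-44 straddled it, and the pool lay just above it. The log2 differences of 0.16 in 4-18, 0.69 in 3-44 and 0.74 in the pool (standard error 0.27) were under 2-fold, and that of 4-18 ran from -0.55 to 0.27 over the alternatives tried. *Egln3* thus stayed under 2-fold in all 3 silenced groups, as did *Pdk1* (below) and *Vegfa* on probes other than A_64_P155983. On A_64_P155983 *Vegfa* was past 2-fold in 3-44 only.

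Bnip3 and Bnip3l proteins sit in the outer mitochondrial membrane and act as receptors for mitophagy. *Bnip3* (A_64_P018726, minus strand, rn4 chr1:198683030-198683089) was at 13.58, 13.55, 13.66 and 13.29 in CN-10, at 14.48, 15.17, 14.93 and 14.76 in 4-18, at 14.17, 14.28, 14.15 and 14.51 in 3-44, and at 14.80, 14.78, 14.72 and 14.84 in shRNA3T. All 12 silenced arrays were above CN-10, with 3-44 the lowest of the silenced groups. *Bnip3l* (A_43_P13090, minus strand, rn4 chr15:46516681-46516740) was at 13.51, 13.61, 13.66 and 13.62 in CN-10, at 15.15, 14.80, 14.88 and 15.01 in 4-18, at 13.91, 13.98, 13.97 and 14.24 in 3-44, and at 14.74, 14.67, 14.63 and 14.65 in shRNA3T. The groups of *Bnip3l* were stacked without overlap in the order CN-10, 3-44, shRNA3T and 4-18. It was also the member with the least spread between arrays of a group (pooled SD 0.11), smaller than all but 2.89% of the probes well above background on 16 arrays. The log2 differences from CN-10 were 1.32, 0.76 and 1.27 for *Bnip3* (standard error 0.13) and 1.36, 0.42 and 1.07 for *Bnip3l* (standard error 0.09) in 4-18, 3-44 and shRNA3T.

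*Pdk1* encodes a kinase that inhibits pyruvate dehydrogenase and so keeps pyruvate out of the mitochondrial citrate cycle. Its probe A_44_P139718 (plus strand, rn4 chr3:54302974-54303274) spans more genome than its own length. The arrays were at 8.99, 8.86, 9.18 and 8.97 in CN-10, at 9.60, 10.09, 9.50 and 9.62 in 4-18, at 9.77, 9.47, 9.46 and 9.84 in 3-44, and at 9.36, 10.19, 9.84 and 10.03 in shRNA3T. All silenced arrays lay above CN-10 and the silenced groups overlapped one another. The log2 differences were 0.70, 0.63 and 0.85 (standard error 0.17) in 4-18, 3-44 and shRNA3T, all under 2-fold.

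*Ndrg1*, a stress-responsive gene named for its repression by N-myc, is read by A_44_P425380 (minus strand, rn4 chr7:104302898-104302957). It was at 9.18, 8.65, 9.64 and 9.56 in CN-10, at 10.67, 10.86, 10.80 and 10.49 in 4-18, at 9.64, 10.05, 10.33 and 10.92 in 3-44, and at 11.20, 9.94, 11.12 and 11.11 in shRNA3T. Both 4-18 and shRNA3T lay above CN-10 and the lowest array of 3-44 was level with its highest, although replicate 2 of the pool was far below the other 3 arrays of its group. The log2 differences were 1.45, 0.97 and 1.58 in 4-18, 3-44 and shRNA3T (standard error 0.30).

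*Ankrd37* encodes an ankyrin repeat protein, and its probe A_42_P664913 (plus strand, rn4 chr16:49552226-49552285) is spotted 10 times. The arrays were at 7.69, 7.62, 7.65 and 7.64 in CN-10, at 9.01, 9.24, 8.77 and 8.95 in 4-18, at 8.94, 9.08, 9.13 and 9.52 in 3-44, and at 8.51, 8.65, 8.47 and 8.62 in shRNA3T. The control arrays were within 0.03 (SD) of each other and all silenced arrays were above them. Unlike *Adm*, *Angptl4* and *Ndrg1*, *Ankrd37* was lowest in the pool among the silenced groups, with log2 differences from CN-10 of 1.35 in 4-18, 1.52 in 3-44 and 0.91 in the pool (standard error 0.12).

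**Figure D2:**
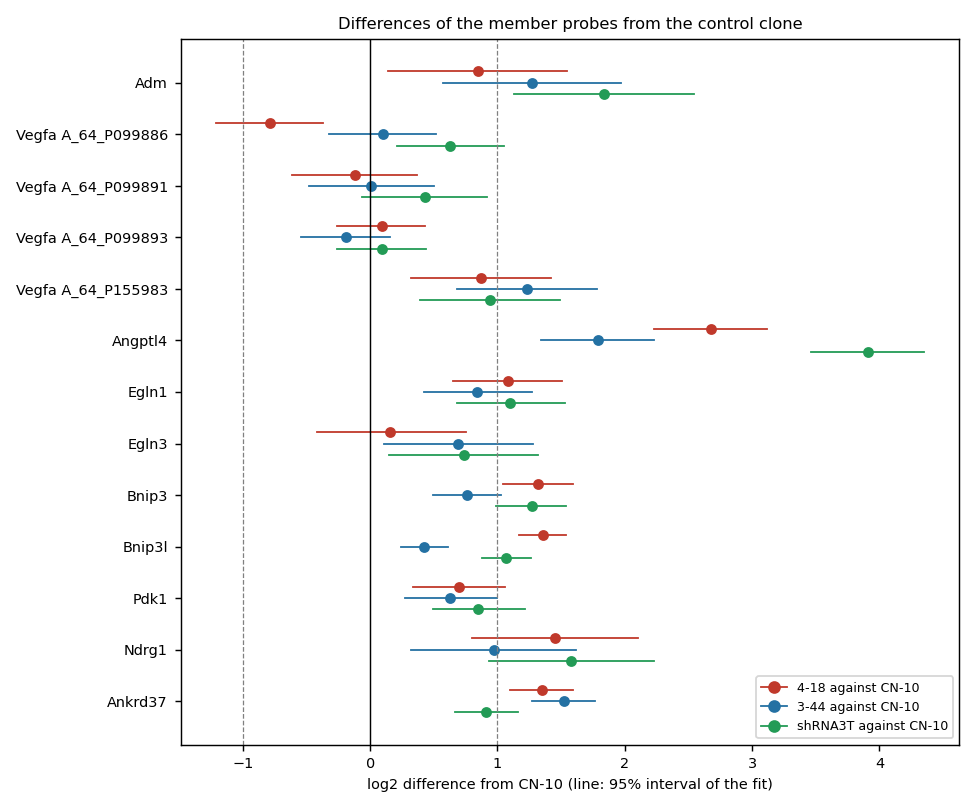
Log2 difference of each member probe from CN-10 (horizontal axis) in the 3 silenced groups, with lines for 95% intervals of the fit and dashed lines at 2-fold. Most points lie to the right of 0, *Angptl4* of shRNA3T is furthest out at 3.91, and A_64_P099886 of *Vegfa* in 4-18 lies to the left at -0.79.

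Counted over the 13 probes, a difference of at least 2-fold upward with a limma adjusted p under 0.05 was found for 6 in 4-18 (2.55% of all probes), for 4 in 3-44 (0.682% of all probes) and for 6 in shRNA3T (1.12% of all probes). In 4-18 these were *Angptl4*, *Ankrd37*, *Bnip3*, *Bnip3l*, *Egln1* and *Ndrg1*, in 3-44 *Adm*, *Angptl4*, *Ankrd37* and A_64_P155983 of *Vegfa*, and in shRNA3T *Adm*, *Angptl4*, *Bnip3*, *Bnip3l*, *Egln1* and *Ndrg1*. In this fit *Angptl4* alone among the members passed in all 3. With the processed signal *Ankrd37* passed in all 3 as well. Its log2 difference in shRNA3T was then 1.29 with 75th percentile scaling (limma adjusted p = 8.94e-05) and 1.37 with quantile normalization (limma adjusted p = 2.83e-05). All arrays of the silenced group lay above all arrays of CN-10 for 8 of 13 probes in 4-18 (12% of all probes), for 7 in 3-44 (7.39% of all probes) and for 11 in shRNA3T (10.9% of all probes). As these contrasts chose the genes, nothing is read from the distance between the members and the background. The 3 contrasts share the 4 arrays of CN-10.

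The contrasts with 4-18 were the most sensitive to how the arrays were scaled. With each array scaled to a common 75th percentile in place of quantile normalization, the median log2 difference of all probes in 4-18 against CN-10 moved from 0.01 to 0.86. The median of the 13 member probes was then 1.13, and 8 of them lay above the median of all probes. Over the probes well above background on 16 arrays, as all members are, the median was 0.18, and 9 of the 13 lay above it. With the processed signal and the same scaling the median of all probes was 0.20. With the deposited values, which are not scaled between arrays, the member probes had a median of 0.39 in 4-18, where 9 of the 13 were above 0, beside a median of -0.53 over all probes well above background on 16 arrays. In 3-44 the median of the 13 probes was between 0.68 and 0.99, and in shRNA3T between 0.89 and 1.00. These ranges cover the settings above and the processed signal with quantile normalization.

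Whether the silenced groups differ from each other was not used to choose the genes, and it was tested. Between the stable clones, 0 of 13 member probes passed the 2-fold limit with a limma adjusted p under 0.05 (4.81% of all probes), and 3 were higher and 1 lower at an unadjusted p under 0.05 (18% and 15.4% of all gene names). With normexp and 75th percentile scaling the median of all probes in 4-18 moved to 0.84 against 3-44 and to 0.97 against shRNA3T, and 2 and 0 of the 13 probes lay above it. Over the probes well above background on 16 arrays, as all members are, that median was 0.19 in both comparisons, and 7 and 2 of the 13 probes lay above it, as many as above the corresponding median with quantile normalization. At any fold, 4 probes had an adjusted p under 0.05 (22.1% of all probes) and 3 did not overlap between the clones (21.4% of all probes). *Bnip3l* was 1.91-fold higher in 4-18 than in 3-44 (log2 difference 0.94, limma adjusted p = 2.06e-06, 95% interval 0.75 to 1.12). *Angptl4* was 1.85-fold higher in 4-18 (log2 difference 0.89, limma adjusted p = 0.00575). *Bnip3* was 1.47-fold higher there (log2 difference 0.56, limma adjusted p = 0.00551), and on A_64_P099886, *Vegfa* was lower in 4-18 (log2 difference -0.89, limma adjusted p = 0.00417). The adjusted p of each of the 4 was over 0.05 under some alternative. With the unscaled deposited values the differences were 0.31 for *Bnip3l* (limma adjusted p = 0.395), 0.39 for *Angptl4* (limma adjusted p = 0.402) and -0.08 for *Bnip3* (limma adjusted p = 0.822), and with the processed signal and 75th percentile scaling that of *Vegfa* on A_64_P099886 was -0.34 (limma adjusted p = 0.28). The median of the probes well above background on 16 arrays was at -0.41 with the deposited values, and *Bnip3l*, *Angptl4* and *Bnip3* all lay above it.

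Against the pool, clone 4-18 differed past both limits on 2 of the 13 probes (4.32% of all probes). *Angptl4* was lower in 4-18 (log2 difference -1.23, 95% interval -1.67 to -0.79, limma adjusted p = 0.000543), and so was *Vegfa* on A_64_P099886 (log2 difference -1.42, 95% interval -1.84 to -1, limma adjusted p = 0.000107). At any fold, 5 probes had an adjusted p under 0.05 (20.1% of all probes) and 6 did not overlap (22.2% of all probes). Besides *Angptl4* and *Vegfa*, the probes with an adjusted p under 0.05 were *Adm*, with a log2 difference of -0.99 in 4-18 (limma adjusted p = 0.0459), *Ankrd37*, higher by 0.43 (limma adjusted p = 0.0148), and *Bnip3l*, higher by 0.29 (limma adjusted p = 0.0288). The adjusted p of *Adm* rose to as much as 0.104 when single arrays were left out, here without replicate 3 of 4-18, and *Adm* passed both limits in 6 of the 28 alternatives, as with array weights (log2 difference -1.06, limma adjusted p = 0.0116). With the unscaled deposited values the last 2 were at -0.01 for *Ankrd37* and -0.38 for *Bnip3l*, where the median of the probes well above background on 16 arrays was itself at -0.54, so that both genes lay above that median.

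The stable clone 3-44 and the pool carry the same shRNA3, and they differed past both limits on 1 of the 13 probes (2% of all probes). That probe was *Angptl4*, which was lower in the clone with a log2 difference of -2.12 (95% interval -2.56 to -1.68, limma adjusted p = 1.25e-05). At any fold, 4 probes had an adjusted p under 0.05 (10.6% of all probes) and 5 did not overlap (21.8% of all probes). *Bnip3l* was lower in the clone (log2 difference -0.65, limma adjusted p = 0.000192), as was *Bnip3* (log2 difference -0.51, limma adjusted p = 0.0193), whereas *Ankrd37* was higher (log2 difference 0.61, limma adjusted p = 0.0033). These 3 directions held under all 28 alternatives, but the limma adjusted p did not, at 0.171 for *Bnip3l*, 0.459 for *Bnip3* and 0.726 for *Ankrd37* with the deposited values.

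**Figure D3:**
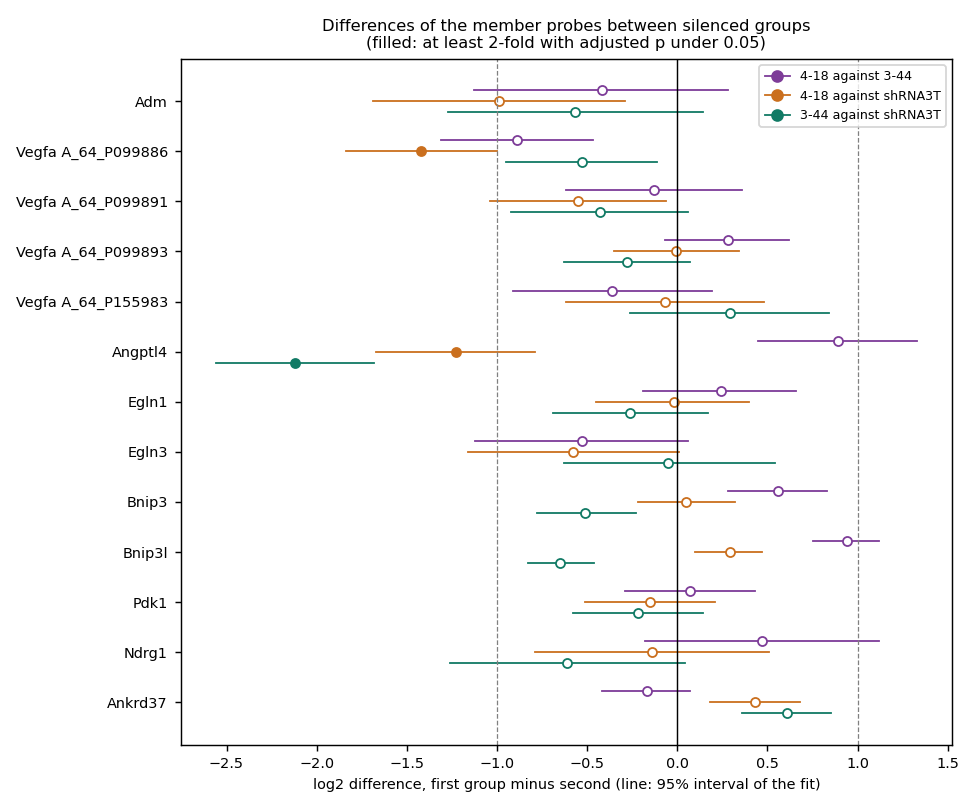
Log2 difference of each member probe between silenced groups (horizontal axis), with lines for 95% intervals of the fit, dashed lines at 2-fold and filled points where both limits were passed. Filled points are *Angptl4* in both comparisons with the pool and A_64_P099886 of *Vegfa* in 4-18 against the pool.

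For the remaining members the interval gives what the arrays allow. *Egln1* differed by 0.24 between 4-18 and 3-44 (95% interval -0.19 to 0.66), by -0.02 between 4-18 and shRNA3T (-0.45 to 0.40) and by -0.26 between 3-44 and shRNA3T (-0.69 to 0.17). *Pdk1* differed by 0.07, -0.15 and -0.22 in the same order, with intervals that stayed between -0.58 and 0.43. A 2-fold difference between silenced groups lies outside the intervals of both genes. For *Egln3* the 95% interval was -1.12 to 0.06 between 4-18 and 3-44, -1.16 to 0.01 between 4-18 and shRNA3T, which did not overlap, and -0.63 to 0.54 between 3-44 and shRNA3T, so that a lower level of 2-fold in 4-18 lies within the first and the second. The intervals were also wider for *Ndrg1*, where 3-44 was lower than shRNA3T by a log2 difference of -0.61 (95% interval -1.26 to 0.04), and for *Adm*, where the same comparison gave -0.57 (95% interval -1.27 to 0.14).

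The spread between arrays of a group was a further measure that the choice of genes did not use. The pooled SD was 0.51 for *Adm*, 0.47 for *Ndrg1* and 0.42 for *Egln3*, above those of 93.3%, 90.6% and 85.8% of the probes well above background on 16 arrays. The other probes ranged from 0.11 for *Bnip3l* to 0.39 for A_64_P155983 of *Vegfa*, with a median of 0.25 over all such probes. Within groups the members often deviated together. The deviations from the group mean correlated with r above 0 in 32 of the 45 pairs of members (71.1%, against 50.8% of all pairs of genes well above background), with a median r of 0.21 against 0.01. The closest pairs were *Adm* and *Ankrd37* (r = 0.88), *Adm* and *Egln3* (r = 0.74), *Adm* and *Egln1* (r = 0.72) and *Egln1* and *Egln3* (r = 0.69). These values are over 16 arrays that share the normalization, and the genes are not independent of each other.

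Replicate 4 of 3-44 stood out in this measure, with 9 of the 10 genes above the mean of its group and *Adm* 1.33 above it. Replicate 2 of 4-18 also had 9 genes above its group mean, with *Adm* 0.50 above it. Replicate 1 of 3-44 was at -0.90 for *Adm* and -0.91 for *Egln3*. Without replicate 4 the median r fell to 0.03 and 25 of the 45 pairs were above 0, while *Adm* and *Ankrd37* still gave r = 0.74. That array also had the highest share of spots well above background (74.3%) of all 16, and the part of this in the result was not tested. For *Angptl4* the r with the other members ran from -0.26 to 0.39.

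**Figure D4:**
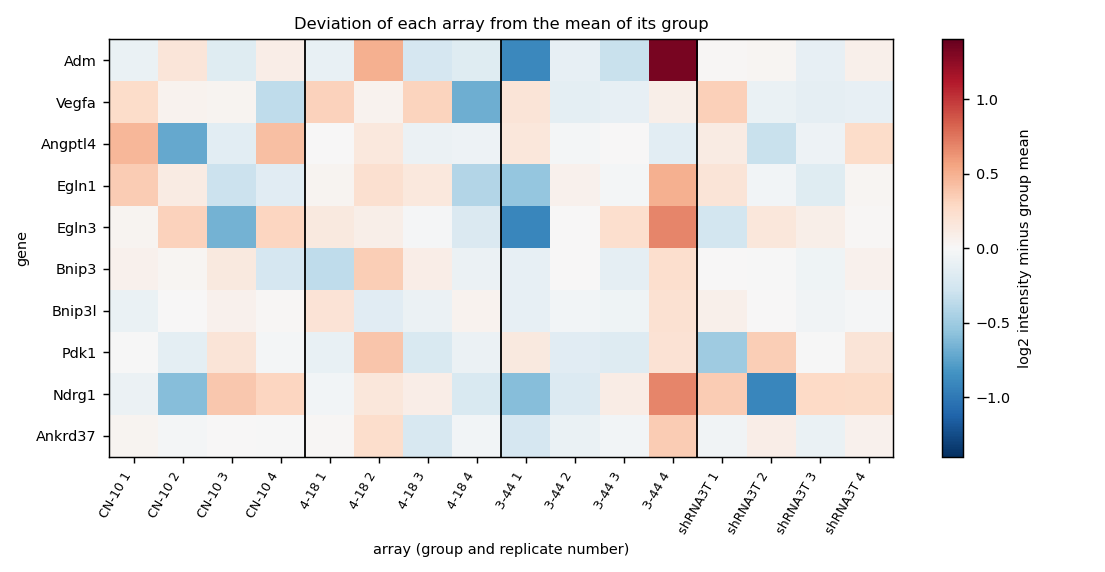
Deviation of each array (horizontal axis) from the mean of its group in log2 intensity, for the representative probe of each gene (vertical axis), in red above and in blue below the mean. The column of 3-44 replicate 4 is red for all genes but *Angptl4*, with *Adm* at 1.33.

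The machinery that controls HIF was compared in the same fit. Of 17 such genes, 0 passed the 2-fold limit with a limma adjusted p under 0.05 in any contrast with CN-10, beside 2.62% higher and 3.54% lower of all gene names in 4-18, 0.685% and 0.788% in 3-44, and 1.2% and 1.19% in shRNA3T. At an unadjusted p under 0.05, 5 were higher and 4 lower in 4-18 (16.7% and 17.9% of all gene names), 2 and 2 in 3-44 (8.53% and 11.1%), and 0 and 2 in shRNA3T (10.4% and 12.9%). Their median log2 difference from CN-10 was -0.07 in 4-18, 0.11 in 3-44 and 0.01 in shRNA3T, beside 0.003, -0.008 and -0.008 over all gene names. *Hif1a*, the HIF-1 alpha subunit, was at 9.78 ± 0.60 in CN-10, 9.45 ± 0.46 in 4-18, 9.60 ± 0.32 in 3-44 and 10.14 ± 0.10 in the pool (SD, n = 4), and no difference from CN-10 passed the limma test. *Epas1*, the HIF-2 alpha subunit, was 0.86 higher in 3-44 than in CN-10 on the log2 scale (limma adjusted p = 0.00883) and changed past both limits between the clones, where 4-18 was lower than 3-44 with a log2 difference of -1.15 (limma adjusted p = 0.00033). *Vhl* was higher in 4-18 than in CN-10, with a log2 difference of 0.69 (limma adjusted p = 0.0161), and the corresponding values were 0.36 in 3-44 and -0.19 in shRNA3T. *Arnt* was 0.41 higher in 4-18 (limma adjusted p = 0.00873), where it was well above background on 3 of the 4 arrays. In the same contrast the coactivator gene *Ep300* was 0.39 higher (limma adjusted p = 0.00184) and the PHD-binding lectin gene *Os9* 0.33 higher (limma adjusted p = 0.0239).

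The other genes of this list had adjusted p values over 0.05 against CN-10 in all groups. *Egln2*, which encodes the third prolyl hydroxylase PHD1, differed from CN-10 by 0.02, 0.25 and 0.12 in 4-18, 3-44 and shRNA3T. *Hif1an*, the asparaginyl hydroxylase of HIF, differed by -0.32, 0.14 and -0.18, the alternative subunits *Hif3a* and *Arnt2* by -0.07 to -0.36 and by -0.40 to -0.47 (*Hif3a* was well above background on 1 of the 4 arrays of 4-18), and the ubiquitin ligase genes *Siah1a* and *Siah2* by -0.36 to -0.03 and by -0.30 to -0.07. *Cul2*, *Rbx1*, *Tceb1* and *Tceb2*, which encode the ligase that works with VHL, lay between -0.45 and 0.24, and the coactivator gene *Crebbp*, well above background on 2 of the 4 arrays of 4-18, between 0.27 and 0.35.

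A list of 35 further HIF targets, 33 of them on the array, moved in part of its genes. In 4-18, 7 passed both limits upward and 0 downward (2.62% and 3.54% of all gene names), in 3-44 0 in either direction (0.685% and 0.788%), and in shRNA3T 3 upward and 0 downward (1.2% and 1.19%). At an unadjusted p under 0.05, 15 were higher and 3 lower in 4-18, 10 higher and 1 lower in 3-44, and 13 higher and 2 lower in shRNA3T, beside 16.7% and 17.9%, 8.53% and 11.1%, and 10.4% and 12.9% of all gene names. The median log2 difference was 0.26, 0.23 and 0.36 in the same order. These genes were listed with earlier results of the same arrays known.

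Among the further targets with the widest mean difference from CN-10 were *Igfbp1*, *Hmox1* and *Narf*. *Igfbp1*, a secreted binding protein of insulin-like growth factors made in liver, was 1.29 higher in 4-18 (limma adjusted p = 5.48e-05), 0.65 higher in 3-44 (limma adjusted p = 0.0298) and 1.99 higher in shRNA3T (limma adjusted p = 2.5e-06) on the log2 scale. *Hmox1*, the heme oxygenase of oxidative stress, was 2.18 higher in 4-18 (limma adjusted p = 1.39e-07), and 0.75 and 0.82 higher in 3-44 and shRNA3T. *Narf* was 1.83 higher in 4-18 (limma adjusted p = 1.42e-07) and 0.23 and 0.45 higher in 3-44 and shRNA3T. In shRNA3T the genes past both limits were *Igfbp1*, *Kdm3a*, a histone demethylase (1.15), and *Plin2*, a lipid droplet protein (1.16), named here after their values were seen. *Plin2* is also counted among the PPAR alpha targets below.

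**Figure D5:**
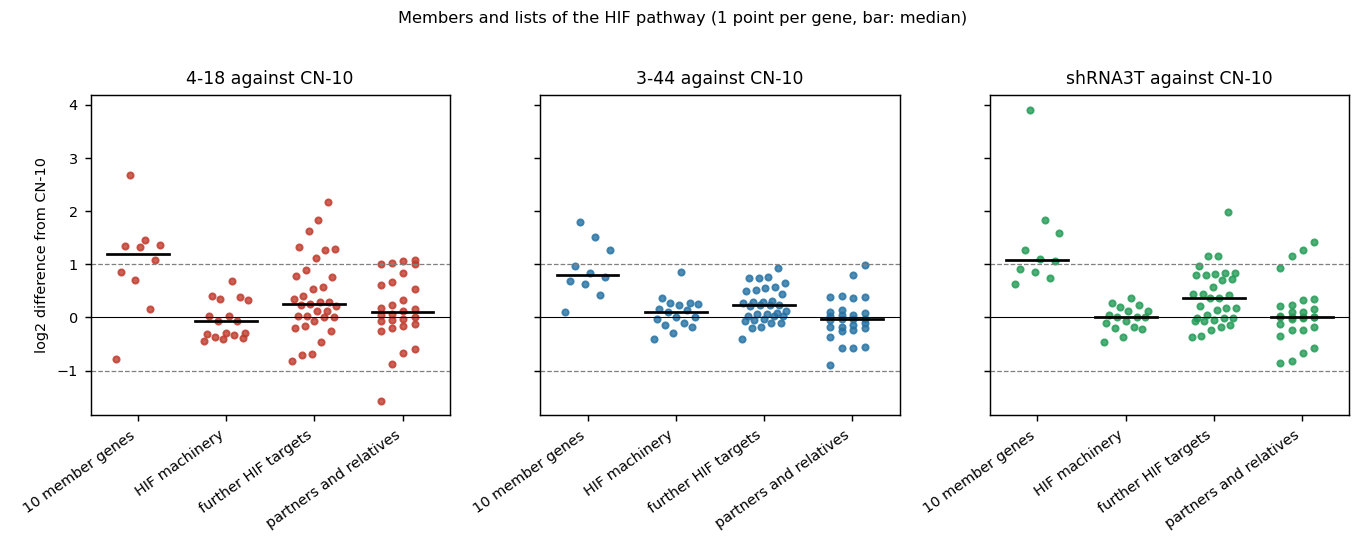
Log2 difference from CN-10 (vertical axis) of the 10 members, of the HIF machinery, of further HIF targets and of partners and relatives of the members (horizontal axis), in 1 panel for each silenced group, with 1 point per gene and bars at the medians. The machinery is centred near 0, with medians of -0.07, 0.11 and 0.01, and the further targets above it, with medians of 0.26, 0.23 and 0.36. The further targets and the partners and relatives include genes that were not well above background on all arrays of any group.

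Receptors, antagonists and relatives of the members made up a list of 28 genes, of which 4 passed both limits upward and 1 downward in 4-18, 0 in 3-44 (4 higher and 7 lower at an unadjusted p under 0.05 in the limma fit, beside 8.53% and 11.1% of all gene names) and 3 upward in shRNA3T. The shares over all gene names, higher and lower, were 2.62% and 3.54% in 4-18, 0.685% and 0.788% in 3-44, and 1.2% and 1.19% in shRNA3T, so that the single lower gene of 28 (3.57%) is near the background. *Ndrg2*, a relative of *Ndrg1*, was 1.07 higher in 4-18 (limma adjusted p = 0.00484), 0.99 higher in 3-44 (limma adjusted p = 0.0207) and 1.42 higher in shRNA3T (limma adjusted p = 0.00117). *Ramp1*, a subunit of receptors for calcitonin family peptides, was lower in 4-18 with a log2 difference of -1.57 (limma adjusted p = 0.000258), where it was well above background on 2 of the 4 arrays, and differed by -0.57 and -0.67 in 3-44 and shRNA3T. Its relative *Ramp2*, named here after its values were seen, was 1.02 higher in 4-18 (limma adjusted p = 0.00016) and differed by -0.20 and 0.21 in 3-44 and shRNA3T. *Pdp2*, the phosphatase that opposes Pdk1 at pyruvate dehydrogenase, was 1.26 higher in shRNA3T (limma adjusted p = 0.0127), and *Vegfc*, a lymphatic relative of *Vegfa*, 1.15 higher there (limma adjusted p = 0.0163). The corresponding differences in 4-18 and 3-44 were 0.62 and 0.79 for *Pdp2* and 0.84 and 0.36 for *Vegfc*.

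Targets of other regulators moved in the same arrays, and their part in the member values was not tested. The counts stand beside shares over all gene names of 2.62% higher and 3.54% lower in 4-18, 0.685% and 0.788% in 3-44, and 1.2% and 1.19% in shRNA3T. Of 15 PPAR alpha targets, 4 passed both limits upward and 1 downward in 4-18, 2 upward in 3-44 and 6 upward in shRNA3T. Of 14 targets of the stress factor ATF4 on the array, 1 passed upward and 3 downward in 4-18, and 0 in 3-44 and shRNA3T, where 1 was higher and 1 lower, and 1 higher and 3 lower, at an unadjusted p under 0.05 in the limma fit (8.53% and 11.1%, and 10.4% and 12.9% of all gene names). Of 18 glycolytic enzymes and relatives, 5 passed upward in 4-18, 1 in 3-44 and 2 in shRNA3T, and *Aldoc* was over 5 units of log2 higher in all 3. Of 8 hepatocyte markers, 1 passed upward and 2 downward in 4-18, 2 upward in 3-44 and 3 upward in shRNA3T, while 0 of 8 markers of other liver cells passed both limits against CN-10, where at an unadjusted p under 0.05 in the limma fit 4 were lower in 4-18 (17.9% of all gene names), 1 was lower in 3-44 (11.1%), and 1 was higher and 1 lower in shRNA3T (10.4% and 12.9%).

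The genes whose level most resembled the common course of the members were taken from 11973 other gene names well above background on 16 arrays. The course was the mean of the standardized levels of the 10 members, which was from -1.25 to -1.04 on the arrays of CN-10, from -0.05 to 0.59 on those of 4-18, from -0.32 to 0.82 for 3-44 and from 0.69 to 0.86 for the pool. The highest Pearson r over the 16 arrays was that of *Ddit4*, a hypoxia- and stress-induced inhibitor of mTORC1 (r = 0.948), followed by *Srgap2* (r = 0.939), *G6pc*, the catalytic subunit of glucose-6-phosphatase (r = 0.934), and *Gpr146* (r = 0.930). The fifth, A_64_P057626 (r = 0.930), carries no gene name in the files. *Ddit4* was at 11.70 in CN-10, 12.28 in 4-18, 12.26 in 3-44 and 12.55 in the pool, so that it followed the course with differences under 2-fold. Each member was also set against the mean of the other 9. The r was 0.91 for *Egln1*, 0.88 for *Adm*, 0.87 for *Angptl4* and *Bnip3*, 0.83 for *Ndrg1*, 0.79 for *Pdk1*, 0.71 for *Bnip3l* and 0.70 for *Ankrd37*, and it was 0.57 for *Egln3* and 0.07 for *Vegfa* on A_64_P099886. These coefficients largely reflect the step between CN-10 and the silenced groups on which the genes were chosen.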

How the data were processed

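RNA (200 ng) of 4 biological replicates of each group was labelled with Cy3 and hybridized by the authors to 1-colour Agilent 4x44K v3 rat arrays. The intensity values that the authors deposited are mean spot and median local background signals from Feature Extraction 10.7.3.1, linear and not normalized. The authors' series table was treated as a score, since its values had lost their decimal point. With the point restored they equalled log2 of the normexp-corrected median signal, unscaled between arrays, within 3.99e-11, and they served as an alternative. The submitters' processing notes name limma, and its settings are not given in the sources used here.

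Processing used R 4.3.3 and limma 3.58.1. Spots were background-corrected by normexp (offset 50), the 1377 control spots were dropped from each array, the 42877 gene spots were quantile normalized, spots flagged as outliers were ignored and replicate spots of each probe were averaged on the log2 scale. The linear model held a mean for every group over 16 arrays, with moderated statistics and Benjamini-Hochberg adjustment over all probes. A probe passed both limits at 2-fold with adjusted p under 0.05. For single values, two-sided exact permutation cannot give p below 0.0286. The fit was tested on simulated data. The number of arrays limits the precision.

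The members and lists were chosen with earlier results of these data known. Named were all members and HIF machinery genes, 4 genes of each of 2 further lists with the widest mean difference from CN-10 among those well above background on all arrays of a group, and the 5 genes most like the members. Some items that this rule names are not reported here. In counts of genes, the probe with the highest mean stood for its gene. Probe positions are those of the files (rn4) and promoters those of RefSeq (GRCr8). Alternatives varied the background correction, scaling, filters, arrays in the fit, weights, a replicate block, the fold limit and its test. How the cultures behind the replicates were kept apart is not described, so p-values measure the spread between these samples.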

Additional observations from a re-analysis of the deposited data

Results flagged for a closer look

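Among 52 sets of 4 arrays (13 probes in 4 groups) 2 held an array far from the other 3 by Dixon's criterion, which chance gives in about 1 of 20 sets. On A_64_P099886, *Vegfa* stood at 15.36 on replicate 1 of shRNA3T, above the other 3 arrays of the pool. *Ndrg1* stood at 9.94 on replicate 2 of shRNA3T, below the other 3.

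The difference from CN-10 was unequal between silenced groups for *Angptl4*, by -1.23 on the log2 scale for 4-18 against shRNA3T and by -2.12 for 3-44 against shRNA3T, and for *Vegfa* on A_64_P099886 by -1.42 for 4-18 against shRNA3T, in each case by the limma test between the groups themselves. Slide and group cannot be told apart in these comparisons.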

How the results depend on the processing

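Over 28 alternatives, 2122 of 2184 differences of the 13 probes kept the sign of the reported value, and no difference past both limits changed sign. With the authors' deposited values as they are, the member probes past both limits were 2 in 4-18 and 2 in 3-44 against CN-10, 2 between the clones and 5 in 4-18 against shRNA3T. In 4-18 against CN-10 they were *Angptl4*, higher by 2.10, and *Vegfa* on A_64_P099886, lower at -1.52. There *Egln1*, *Bnip3*, *Bnip3l*, *Ndrg1* and *Ankrd37* no longer passed. The 2 in 3-44 were higher, and those between silenced groups were all lower in 4-18. The deposited values are unscaled, and the probes well above background on 16 arrays had medians of -0.53, -0.41 and -0.54 in 4-18 against CN-10, 3-44 and shRNA3T. With the 2-fold limit tested directly the member probes that passed were 2, 0 and 1 in 4-18, 3-44 and shRNA3T against CN-10 and 0 in 4-18 against shRNA3T. A fold limit of 1.5 gave 7 in 3-44 against CN-10, 3 between the clones and 3 in 3-44 against shRNA3T. The processed signal gave 1 between the clones, both with 75th percentile scaling and with quantile normalization. Leaving out arrays gave 0 to 1 between the clones and 1 to 2 in 3-44 against shRNA3T, the upper value in both cases without replicate 4 of 3-44, where *Bnip3l* reached 1.01 and *Adm* -1.01. The cause was not tested. *Adm* in 3-44 against CN-10 was past both limits in the reported fit and lost this in 10 of 28 alternatives, and *Vegfa* on A_64_P099886 in 4-18 against shRNA3T fell to -0.94 with the processed signal and 75th percentile scaling. Same-numbered arrays were not paired by the labels, and their deviations correlated with r between -0.13 and 0.50 (over 0.1 in 14 of 24). With the replicate number as a block the counts were 6, 4 and 6 against CN-10 and 0, 2 and 1 between silenced groups. At any fold, the block took the adjusted p of A_64_P099886 in 3-44 against shRNA3T from 0.109 to 0.0412 and moved no other member below or above 0.05 between silenced groups.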
